A study of Mus musculus with 6 samples.

Results

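Nitric oxide synthase 2 (Nos2) and the genes that supply it with arginine and cofactor were examined in a mouse culture whose label is lymphatic endothelial cells, the lining of lymph vessels. The set was fixed by symbol as 9 genes: Nos2, Ass1, Asl, Arg2, Slc7a2, Gch1, Pts, Ddah1 and Ddah2. Of these, 8 matched a row among the 15528 symbols of the count table, and Ass1 was not analysed here. The set was put together with results of the same comparison known, so the differences of its members are given as a description and support nothing. Poly(A) RNA was sequenced from 3 libraries of cells treated with red blood cells (RBC) and 3 control libraries (CON), both labelled 24 h. The labels give no strain, no dose of red blood cells and no statement that the replicates came from separate cultures, so the spread behind all tests is that of these libraries and may be technical. The series title sets the cells in a study of brain injury after subarachnoid bleeding, and the comparison asks how transcripts of the cells differ when red blood cells are present.

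Nitric oxide synthases turn arginine into nitric oxide and citrulline. The inducible enzyme encoded by Nos2 is made on demand, in mouse cells under NF-kB and interferon-driven factors, and it works as a dimer that needs tetrahydrobiopterin. Gch1 encodes the first and rate-limiting enzyme of that cofactor's synthesis and Pts the second one. Citrulline is turned back into arginine by the products of Ass1 and Asl, arginine enters cells through cationic transporters such as those of Slc7a1 and Slc7a2, and arginases compete for it. Ddah1 and Ddah2 encode enzymes assigned to the breakdown of methylated arginines, which block nitric oxide synthases.

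Libraries held 18000112 to 18327247 counts in the RBC group and 17263359 to 18381419 counts in the CON group. CON replicate 2 stood apart: the mean chi-square over genes was 26.7 and 28.1 when it was compared with the other controls, 1.99 for the pair of other controls and 1.73 to 2.13 for pairs within the RBC group. Of 16 markers of lymphatic and vascular endothelium 13 had a row and 6 had enough counts for the test. Cdh5, the endothelial cadherin, had 11 counts over the 3 RBC libraries and 7 over the 3 controls, and Kdr had 1 and 0 counts. In the same order Pdpn had 2 and 6 counts, Tek 3 and 3, Sox18 2 and 2, Itga9 1 and 0, and Reln 5 and 4. Others on the list were well expressed, with Nrp2 at 361 CPM in the RBC group and 272 CPM in the CON group, Nr2f2 at 146 and 161 CPM, Eng at 99.0 and 99.3 CPM and Pecam1 at 13.7 and 14.98 CPM in RBC and CON. Prox1 and Lyve1 were not analysed here. With markers both present and near absent, the cell type is taken from the label.

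Nos2 was the member that differed between the groups. It had 53, 45 and 55 counts in the RBC libraries, against 8, 6 and 9 counts in the CON libraries. Scaled to the library total as CPM, that was 2.94, 2.46 and 3.05 CPM with red blood cells and 0.463, 0.326 and 0.504 CPM in controls. All RBC libraries lay far above all controls, and the libraries within a group lay close together. The mean was 2.82 ± 0.32 CPM in the RBC group and 0.431 ± 0.093 CPM in the CON group (SD, n = 3 each), a log2 fold change of 2.69 ± 0.23 (SE), or 6.47-fold. Counting error alone would give an SD of 0.394 CPM in the RBC group and 0.155 CPM in the CON group, so the spread between libraries was no wider than counting. By size of fold change Nos2 stood at rank 26 of the 11208 genes tested. By level in the RBC group it stood at rank 10116 of all 15528 symbols. With 1 library left out at a time the log2 fold change ranged from 2.52, without CON replicate 2, to 2.82, without CON replicate 3.

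**Figure D1:**
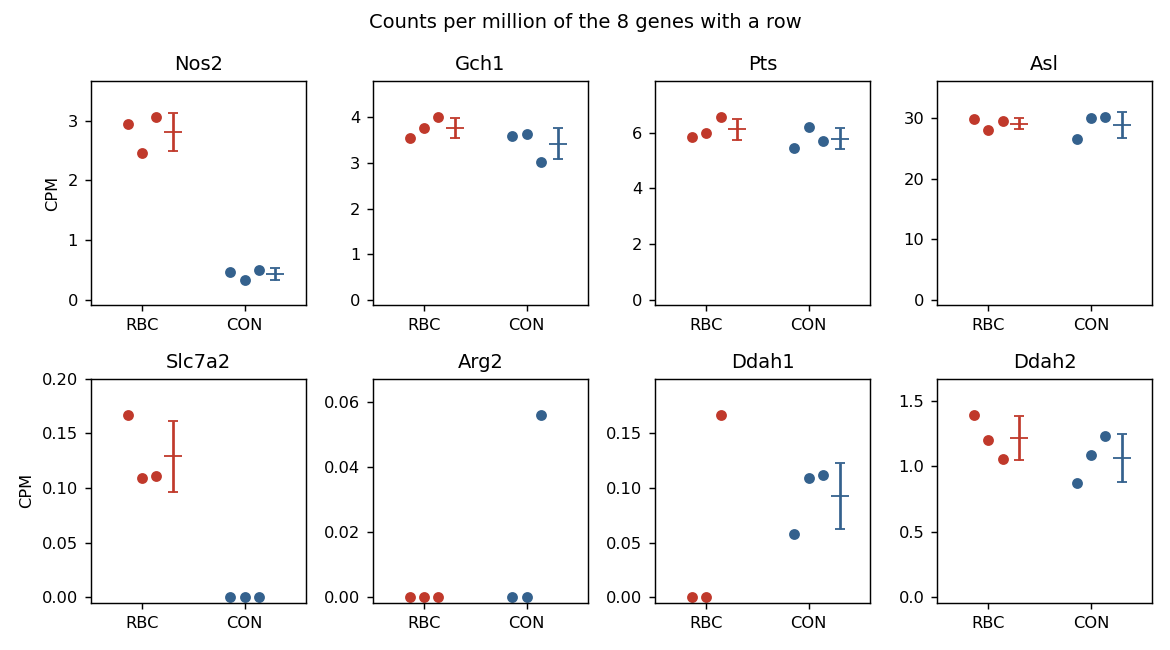
Counts scaled to the library total (CPM, vertical axes from 0, own scale in each panel) of the 8 genes in each of 3 RBC and 3 CON libraries; points are libraries, and bars are the mean and SD, left out where a library had 0 counts. The Nos2 points of the RBC group, 2.46 to 3.05 CPM, lie above those of the controls, 0.326 to 0.504 CPM, while Gch1, Pts, Asl and Ddah2 overlap.

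In the edgeR fit over all genes, 5 of the 8 members with a row had enough counts to be tested, and 1 of these 5, Nos2, was called higher at a Benjamini-Hochberg adjusted p of 0.05. Nos2 was under the minimum count of 10 in every control and entered the test through the RBC group alone. Over all 11208 genes tested 1.46% were called, 1.16% higher and 0.303% lower. RBC and CON libraries were fully apart in 1 of the 5 tested members, again Nos2, and in 19.6% of all genes tested (10.4% with the RBC libraries higher and 9.19% lower). The median log2 fold change of the 5 tested members was 0.14, against -0.0027 over all genes tested. The 3 members with too few counts were Slc7a2, Arg2 and Ddah1.

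The cofactor genes of the set were not called beside Nos2. Gch1 had 64, 69 and 72 counts in the RBC libraries, against 62, 67 and 54 counts in the CON libraries. The groups overlapped, with a log2 fold change of 0.14 ± 0.13 (SE; 95% interval -0.16 to 0.45). Pts had 105, 110 and 118 counts with red blood cells and 94, 114 and 102 counts in controls, again overlapping (log2 fold change 0.08 ± 0.11, interval -0.16 to 0.33). The intervals still allow a rise of Gch1 of up to 0.45 on the log2 scale.

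Asl, the enzyme that releases arginine from argininosuccinate, was the most abundant member per length and overlapped between the groups. It had 29.8, 28.0 and 29.5 CPM in the RBC libraries, against 26.5, 30.0 and 30.1 CPM in the CON libraries. The log2 fold change was 0.01 ± 0.07 (SE), with a 95% interval of -0.15 to 0.18. Ddah2 had 25, 22 and 19 counts in the RBC libraries and 15, 20 and 22 counts in the CON libraries. These counts overlapped too, and at this depth the interval of the Ddah2 log2 fold change, -0.33 to 0.71, is wide. Asl, Gch1, Pts and Ddah2 remained uncalled with any 1 library left out, and over these 6 fits only Asl changed sign, between -0.05 and 0.04.

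The inducible arginine transporter Slc7a2, the mitochondrial arginase Arg2 and Ddah1 were at the edge of detection. Slc7a2 had 3, 2 and 2 counts in the RBC libraries and 0 counts in each control. Against a floor of 3 counts over the control group that would be 2.3-fold, with the 7 RBC counts taken as exact. The exact 95% interval of the ratio of pooled counts, which covers counting error only, starts at 1.42. Slc7a2 was not called by edgeR or limma in the fits without a filter. Arg2 had 0 counts in the RBC libraries and 1 count in a single control, so no fold is given. Ddah1 had 0, 0 and 3 counts with red blood cells, against 1, 2 and 2 counts in controls, a ratio of 0.591 (exact 95% interval 0.0917 to 3.04). The floor of 3 counts over a group stands for 0.0552 CPM in the RBC libraries and 0.0561 CPM in the controls, and differences at or under it were not detectable.

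Per transcript length the members kept nearly the same order in both groups, with Nos2 moving up. On the authors' FPKM scale, which allows levels of different genes to be compared, Asl had 15.4 ± 0.51 FPKM in the RBC group and 15.3 ± 1.10 FPKM in the CON group (SD, n = 3 each). Pts followed with 3.71 ± 0.23 and 3.50 ± 0.23 FPKM in RBC and CON, and Gch1 with 1.36 ± 0.08 and 1.23 ± 0.12 FPKM. These neighbours did not overlap in either group. In the RBC group Nos2, at 0.656 ± 0.074 FPKM, came next and overlapped Ddah2, at 0.609 ± 0.084 FPKM. In the CON group Ddah2, at 0.533 ± 0.092 FPKM, lay above Nos2, at 0.10 ± 0.022 FPKM, without overlap. Slc7a2, Ddah1 and Arg2 stayed below 0.04 FPKM in every library.

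Among the other nitric oxide synthases, Nos1, the neuronal form, had 0.277 ± 0.017 FPKM in the RBC group and 0.235 ± 0.023 FPKM in the CON group. Its 49, 46 and 51 RBC counts lay just above the 35, 43 and 44 CON counts, and its log2 fold change of 0.24 ± 0.15 was not called (edgeR adjusted p = 0.651). Nos2 thus stood above Nos1 per length in every RBC library and below it in every control. Nos3, the endothelial form, was not analysed here.

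**Figure D2:**
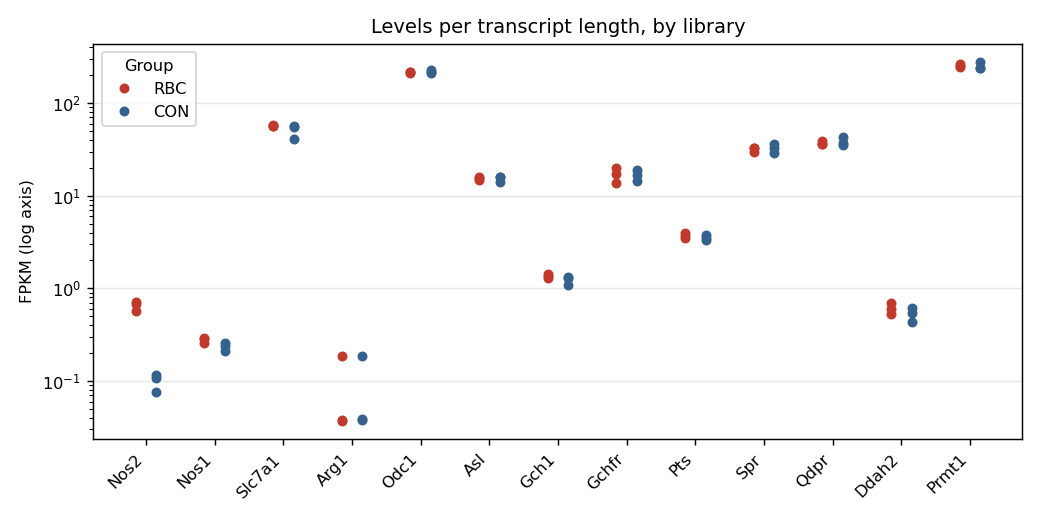
FPKM (log axis) of Nos2 and of genes of its pathway in each library, RBC (red) left of CON (blue) for each gene; points are libraries, and only genes with counts in every library are drawn. Nos2 lies between 0.572 and 0.711 FPKM in the RBC libraries and between 0.0760 and 0.117 FPKM in controls, while Slc7a1 and Odc1 lie more than 1 order of magnitude higher in both groups.

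Other genes of the pathway were read from 9 lists chosen by role, 74 genes in all, of which 66 had a row and 57 were tested. In edgeR 1 of the 57 was called higher and 0 lower; 11 had an unadjusted p under 0.05, and DESeq2 called 2 higher and 1 lower. Over all 11208 genes tested 9.99% had an unadjusted p under 0.05 and DESeq2 called 2.11%. All 57 log2 fold changes lay between -0.42 and 0.47, with a median of -0.013, against -0.0027 over all genes tested. The share called, 1 of 57, is near the background of 1.46% given above. The lists were chosen with earlier results of these data known.

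Other arginine transporters were far more abundant per length than Slc7a2. Slc7a1, the constitutive cationic transporter, had 56.2, 57.4 and 56.7 FPKM in the RBC libraries, against 56.0, 41.0 and 55.6 FPKM in the CON libraries. The lowest of these was CON replicate 2. The log2 fold change of Slc7a1 was 0.16 ± 0.11 (SE; adjusted p = 0.651), and 0.02 without CON replicate 2. Slc3a2, the heavy chain shared by several amino acid transporters, and its partner Slc7a6 had log2 fold changes of 0.03 and -0.02. In the uptake list edgeR called 0 of 4 tested genes, with 0 at an unadjusted p under 0.05 and 0 in DESeq2.

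Among genes that draw on arginine or ornithine none was called. The liver-type arginase Arg1 had 5, 1 and 1 counts in the RBC libraries and 1, 5 and 1 counts in the CON libraries. Odc1, ornithine decarboxylase, which opens polyamine synthesis, had 214 ± 3.14 FPKM in the RBC group and 220 ± 8.30 FPKM in the CON group (adjusted p = 0.812). Of 9 tested genes of arginine and ornithine use edgeR called 0, 2 had an unadjusted p under 0.05 and DESeq2 called 0. Those 2 were Pycr1, a proline-forming reductase, with a log2 fold change of 0.26 ± 0.07 (adjusted p = 0.181), and Azin2, an antizyme inhibitor, with -0.42 ± 0.16 (adjusted p = 0.409).

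All 8 tested genes of polyamine synthesis and breakdown had negative fold changes, from -0.27 to -0.05, with a median of -0.16, and none was called in edgeR or DESeq2; 3 had an unadjusted p under 0.05. Over all genes tested 5711 of 11208 had a negative fold change, and 9.99% an unadjusted p under 0.05. Sat1, which acetylates polyamines for export, had 77.2 ± 2.80 CPM in the RBC group and 92.9 ± 8.40 CPM in the CON group (log2 fold change -0.27 ± 0.07, adjusted p = 0.209). Amd1 and Sms, which supply and use the aminopropyl donor, had log2 fold changes of -0.17 and -0.20. Their highest values were those of CON replicate 2. Without that library Sat1 (-0.19, adjusted p = 0.00194) and Amd1 (-0.14, adjusted p = 0.0128) were called lower, while across all alternatives the adjusted p of these genes ranged from 0.00194 to 0.691 and from 0.0128 to 0.911.

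The remaining tetrahydrobiopterin genes were more abundant per length than Gch1. The smallest p was that of Akr1b3, an aldose reductase, with 129 ± 1.48 FPKM in the RBC group and 138 ± 11.2 FPKM in the CON group. Its RBC libraries all lay below the controls, and it was not called (log2 fold change -0.10 ± 0.07, adjusted p = 0.646). Pcbd2, next in order of p, overlapped between the groups, with a log2 fold change of -0.11. The genes that follow were picked for their role and overlapped too. Spr, the last enzyme of the synthesis, had 31.7 ± 1.74 FPKM in the RBC group and 32.7 ± 3.48 FPKM in the CON group. Qdpr, which recycles the cofactor, had 37.3 ± 1.47 and 38.5 ± 3.84 FPKM in RBC and CON. Gchfr, the feedback regulator that inhibits the Gch1 enzyme, had 16.99 ± 3.17 FPKM with red blood cells and 16.7 ± 2.12 FPKM in controls, above Gch1 in every library. In this list 0 of 6 tested genes were called by edgeR, 0 had an unadjusted p under 0.05 and 0 were called by DESeq2.

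Protein arginine methyltransferases, whose products release methylarginines when degraded, showed small differences. Their 8 tested genes had log2 fold changes between -0.09 and 0.08, with 0 called in edgeR or DESeq2 and 0 at an unadjusted p under 0.05. Prmt1, the main asymmetric methyltransferase, had 252 ± 11.6 FPKM in the RBC group and 253 ± 22.2 FPKM in the CON group. Among 7 tested partners of nitric oxide synthases edgeR called 0, and 1 had an unadjusted p under 0.05. This was Cav1, the caveolar scaffold protein that holds the endothelial enzyme inactive, with 525 ± 9.04 CPM in the RBC group and 617 ± 18.3 CPM in the CON group. Its log2 fold change of -0.23 ± 0.05 missed the threshold in edgeR (adjusted p = 0.0892) and passed it in DESeq2 (adjusted p = 0.0115) and without CON replicate 2 (adjusted p = 8.2e-08), the lowest of a range that reached 0.515. Of the nitric oxide sensors and S-nitrosothiol genes only Adh5, which reduces nitrosoglutathione, was tested, and it was not called (log2 fold change -0.04, adjusted p = 0.853). Gucy1a1, a subunit of the nitric oxide receptor guanylate cyclase, had 0 counts in the RBC libraries and 1 in the controls.

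**Figure D3:**
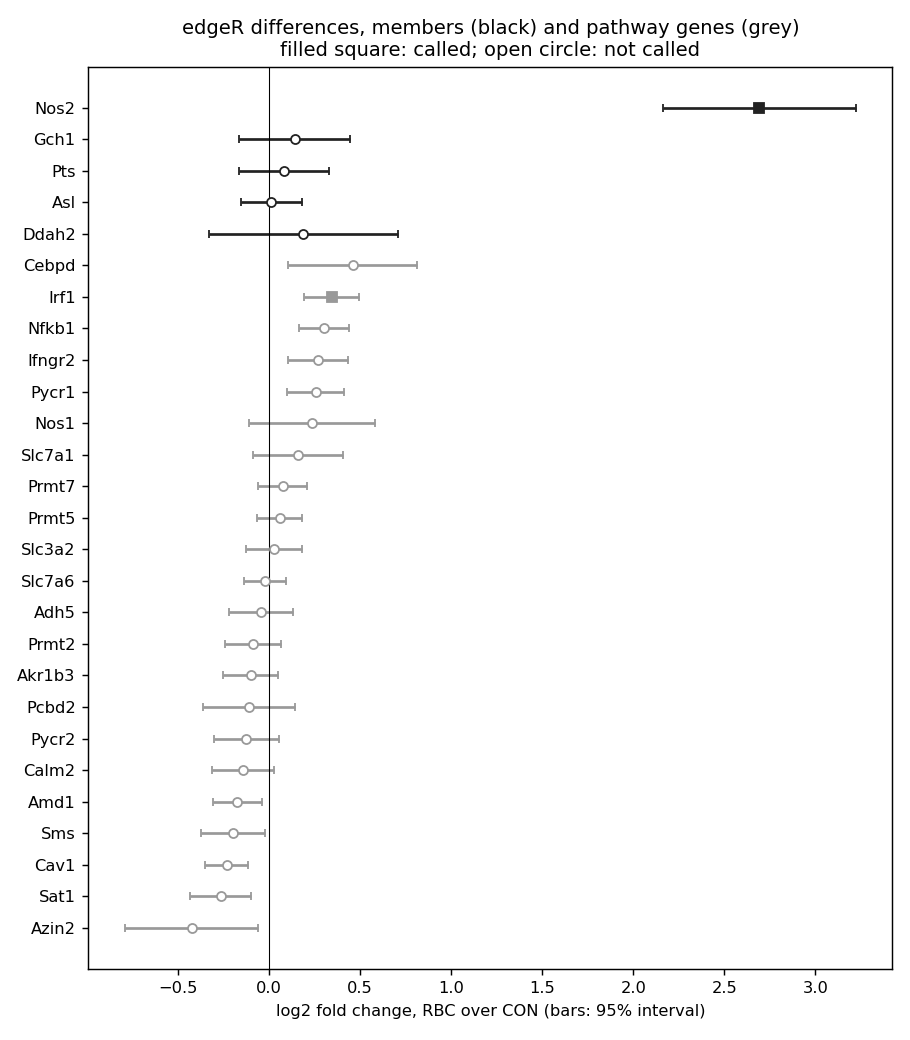
Log2 fold change, RBC over CON, from edgeR for the 5 tested members (black) and 22 pathway genes (grey); bars are 95% intervals, filled squares are called genes and open circles are not. Nos2 lies at 2.69 and Irf1 at 0.34, the called genes, and all grey points lie between -0.42 and 0.47.

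The known inducers of Nos2 transcription included the called pathway gene. Irf1, interferon regulatory factor 1, which binds the mouse Nos2 promoter, had 640, 601 and 595 counts in the RBC libraries, against 467, 470 and 488 counts in the CON libraries. The groups did not overlap, as in 10.4% of all tested genes in this direction, and Irf1 rose by a log2 fold change of 0.34 ± 0.07 (SE; edgeR adjusted p = 0.0419). The call was lost without any 1 of the RBC libraries, CON replicate 1 or CON replicate 3 (adjusted p 0.105 to 0.253), and the adjusted p over all alternatives ran from 0.000383 to 0.253. Nfkb1, a subunit of NF-kB, had 238 ± 2.66 CPM in the RBC group and 193 ± 12.7 CPM in the CON group, just short of a call (log2 fold change 0.30 ± 0.06, adjusted p = 0.0509; range over alternatives 9.06e-08 to 0.293).

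Of the 13 tested inducers 1 was called higher and 0 lower, 5 had an unadjusted p under 0.05, and DESeq2 called 2 higher, Irf1 and Nfkb1, beside the 9.99% and 2.11% of all genes tested. Their median log2 fold change was 0.05. Cebpd, a transcription factor of the acute phase, had 191, 198 and 188 counts with red blood cells and 100, 176 and 138 counts in controls, without overlap (log2 fold change 0.46 ± 0.16, adjusted p = 0.336). Ifngr2, a chain of the interferon gamma receptor, had 28.8 ± 1.94 CPM in the RBC group and 23.9 ± 0.71 CPM in the CON group (adjusted p = 0.175). The fit without CON replicate 2 called 10 of 57 tested pathway genes, beside 899 of all 11297 genes tested in it. Of the 10 pathway genes 6 were higher, among them Irf1, Nfkb1, Cebpd, Ifngr2 and Rela. The 4 lower ones were Cav1, Sat1, Amd1 and Tlr4. Rela and Tlr4 are named because of these values.

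The RBC group, which had more Nos2, also had more blood cell transcripts. RBC replicate 3 had the highest Nos2, 3.05 CPM, and the lowest sums of erythroid and leukocyte markers, 538 and 49.8 CPM. Single leukocyte markers went both ways. In CPM, Cd74 and Adgre1 were highest of the RBC group in that library, and Ptprc and Lyz2 were lowest. The Nos2 SD within the RBC group, 0.32 CPM, was no wider than the 0.394 CPM of counting error alone. No order of the RBC libraries is therefore read from Nos2. In the erythroid list, with the globins and Alas2, 5 of 5 tested markers were called higher, and the 9 markers with a row summed to 538 to 623 CPM in the RBC libraries and 2.88 to 3.64 CPM in the CON libraries. In the leukocyte list 4 of 6 tested markers were called higher, and the 11 of 17 with a row summed to 49.8 to 54.3 CPM in the RBC libraries and 42.2 to 48.4 CPM in the CON libraries. Ptprc, the leukocyte antigen CD45, had 12, 13 and 11 counts in the RBC libraries, and Cd74, the class II invariant chain, had 19, 21 and 27. Adgre1, a macrophage antigen, had 16, 15 and 17 counts there. These 3 had 0 counts in every control. Lyz2, lysozyme, was the other called marker, with 31, 33 and 19 counts in the RBC libraries and 3, 5 and 6 in the CON libraries. All 4 called markers were under the minimum count of 10 in every control and were tested through the RBC group alone, so their share among the tested markers is partly set by the filter. Of the markers too low to test, Itgam had 10, 12 and 6 counts with red blood cells and 1, 0 and 3 counts in controls, and S100a8 had 13, 8 and 16 counts with red blood cells and 6, 6 and 8 counts in controls. Leukocyte marker reads were thus present in controls too, where Nos2 had 6 to 9 counts. Csf1r and Cd68, which held most of the leukocyte sum, overlapped between the groups. The part of leukocyte RNA in the Nos2 difference was not tested. In bulk RNA a larger share of cells with a transcript and more transcript per cell cannot be told apart.

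**Figure D4:**
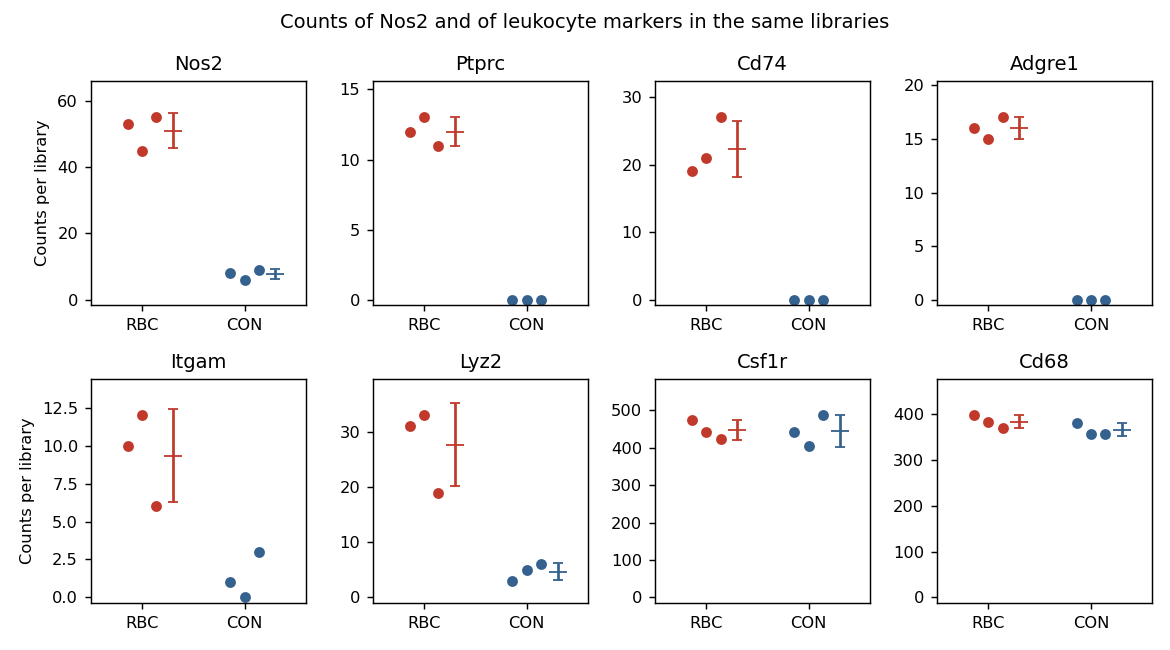
Counts per library (vertical axes from 0, own scale in each panel) of Nos2 and 7 leukocyte markers in 3 RBC and 3 CON libraries; points are libraries, and bars are the mean and SD, left out where a library had 0 counts. Ptprc, Cd74 and Adgre1 have 0 counts in all controls while Nos2 has 6 to 9 and Lyz2 has 3 to 6, and Csf1r and Cd68 overlap between the groups.

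Fibroblast and mesothelial markers, of which 12 had a row, summed to 1052 to 1088 CPM in the RBC libraries and 1130 to 1165 CPM in the CON libraries, and 0 of 5 tested were called in edgeR (3 at an unadjusted p under 0.05, 2 called in DESeq2). The highest were Col1a2, at 448 CPM in the RBC group and 464 CPM in the CON group, Krt8 at 390 and 448, and Msln at 190 and 187. Col1a1, with 4 and 6 counts over the groups, and Acta2, with 7 and 7, were near absent. Endothelial markers summed to 674 to 708 CPM in the RBC libraries and 506 to 621 CPM in the CON libraries, with 1 of 6 tested, Stab1, called higher. The higher RBC sum came from Nrp2, at 361 CPM in the RBC group and 272 CPM in the CON group, and Stab1, at 63.5 and 30.9 CPM. The low end of the control sum, 506 CPM, was CON replicate 2. Nrp2 had 211 CPM in that library and 301 and 304 CPM in CON replicates 1 and 3. It was not called (edgeR adjusted p = 0.268). Nr2f2, at 146 and 161 CPM, and Pecam1, at 13.7 and 14.98 CPM, went the other way. Eng and Flt4 were nearly equal between the groups.

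The genes whose CPM followed Nos2 most closely over the 6 libraries were Pik3ap1, an adaptor of phosphoinositide 3-kinase, Afap1l2, an adaptor at actin filaments, the complement component C3, the importin Kpna3 and Adgre1, the F4/80 antigen of mouse macrophages. Their Pearson correlations with Nos2 on log2(CPM + 1) were 0.998, 0.998, 0.998, 0.998 and 0.996, a description over libraries that fall into the 2 groups. Among 11207 genes compared, 153 had a correlation above 0.95. Pik3ap1 had 15, 13 and 14 counts in the RBC libraries and 1, 0 and 1 counts in the CON libraries. Afap1l2 had 447, 448 and 463 counts in the RBC libraries and 221, 218 and 234 counts in the CON libraries (log2 fold change 0.99 ± 0.07). Kpna3 differed far less, with 237 ± 0.77 CPM in the RBC group and 215 ± 1.41 CPM in the CON group, and was not called (log2 fold change 0.14 ± 0.05, edgeR adjusted p = 0.336).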

How the data were processed

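The authors deposited 2 tables of the same genes: raw counts per gene, whole numbers without normalization, and FPKM values. The ratio of the tables shows FPKM scaled by the total of the listed counts, so both tables describe the same reads. Per the labels' protocols, TRIzol-extracted RNA went into stranded mRNA libraries. Build GRCm39 is named in the submitters' processing notes; aligner, counter, strand setting and gene models: not given in the sources used here. No coordinates or sequences are printed. Reads of near-identical copies or overlapping genes may be shared.

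The deposited counts were fitted in edgeR 4.0.16 (R 4.3.3): filterByExpr (minimum count 10, minimum total 15) kept 11208 genes with 99.96% of counts, followed by TMM scaling and the quasi-likelihood test, two-sided, adjusted by Benjamini-Hochberg over all genes tested and called under 0.05. Alternatives were RLE or no scaling, DESeq2 1.42.0, other filters, erythroid markers left out, a replicate block, each library left out, and limma 3.58.1 on log2(FPKM + 1) or log2(FPKM + 0.1) for genes of mean FPKM of at least 1, or all genes. On simulated counts over 11192 genes the fit recovered 22% of 50 genes changed 1.25-fold, 88% changed 1.5-fold, 92% changed 2-fold and 100% changed 6-fold. Another 10 calls, 6.21% of those made, were of unchanged genes. No simulated library was made to stand apart as CON replicate 2 does. The changed genes were drawn from all genes kept by the filter, so the shares are not those at the level of Nos2.

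The members and lists were chosen with earlier results of these data known. Named were all members, every called pathway gene, up to 3 further genes of each list in order of p, and the 5 genes most correlated with Nos2; others served as level comparisons or markers, and some items are not reported here. Pycr3 was matched by its older symbol Pycrl. The intervals of edgeR fold changes include the spread between libraries. Floors and the intervals of count ratios cover counting error only, since the reads carry no molecular identifiers and cannot be counted as molecules.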

Additional observations from a re-analysis of the deposited data

How the results depend on the processing

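The log2 fold change of Nos2 kept its sign and its side of the threshold in all 14 alternatives that gave it a value. These alternatives refit the same libraries, and Nos2 was chosen with this comparison known, so they describe the processing and add no support. On counts the log2 fold change of Nos2 ranged from 2.52 to 2.82. On log2(FPKM + 1) without a filter it was 0.59, a scale that compresses genes under 1 FPKM. The filter of a mean of 1 FPKM removed Nos2, so 0 members were called with limma on either pseudocount. The 164 called genes became between 62 and 899 with a library left out, 899 without CON replicate 2 (473 higher, 426 lower) and 72, 62 and 79 without RBC replicate 1, 2 and 3. The 1 called pathway gene became 3 in DESeq2, 2 without a low-count filter, 0 with limma on log2(FPKM + 1) with or without the filter, and 0 to 10 with a library left out, 10 without CON replicate 2. With the replicate block 126 genes, 1 member and 0 pathway genes were called; same-numbered libraries deviated together with correlations of -0.011, 0.048 and 0.062, and not every library correlated best with its own number, so the numbers were not taken as pairs. The Irf1 call was lost in 8 of 16 alternatives. Depth limits Slc7a2, Arg2 and Ddah1, with 7, 0 and 3 counts over the RBC libraries and 0, 1 and 5 over the controls. The cause of these changes was not tested.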
